A study of Mus musculus with 4 samples.

Results

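The melanocortin system was described through 5 of the 32285 genes counted in single nuclei of the mouse hindbrain. The genes were *Agrp*, *Pomc*, *Mc3r*, *Mc4r* and *Mrap2*, chosen by name for their place in the system and not by their values. They were measured in 39461 nuclei that the authors had kept, of which 12539 were annotated as neurons. All 5 were present in the matrices, and 4 of them passed the minimum of 10 UMIs over the 4 libraries in neurons. *Mc3r*, with 6 UMIs in neurons, did not.

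POMC is a precursor that is cut into peptides, and its melanocortin peptides, such as α-MSH, activate the melanocortin receptors MC3R and MC4R. AgRP binds the same receptors, competes with these peptides and lowers receptor activity, and MRAP2 is a membrane protein that partners with MC4R and alters its signalling. The cell bodies of AgRP neurons lie in the arcuate nucleus of the hypothalamus, whereas POMC neurons are found there and, as a small group, in the nucleus of the solitary tract (NTS). Neurons of the dorsal vagal complex, to which the NTS and the area postrema belong, carry MC4R and take part in satiety and autonomic control.

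Nuclei were taken from a hindbrain portion that contained the area postrema and the NTS, from adult mice of both sexes aged 12 to 20 weeks, with 2 libraries in each group. By the study's methods a group consisted of 2 mice whose tissue was pooled, so the libraries of a group rest on no more than 2 animals. The AgRP-Gq;POMC-Gi group was heterozygous for AgRP-IRES-Cre, for the Cre-dependent activating receptor hM3DGq, for POMC-Dre and for the Dre-dependent inhibiting receptor hM4DGi. The controls, labelled WT, carried both receptor alleles according to the study's methods but neither recombinase. All mice received 3 mg per kg of CNO, the ligand of both receptors, 1 h before the tissue was taken, so no library of untreated mice was part of the comparison. Cre is driven from the *Agrp* locus, active in cells of the arcuate nucleus, which was not dissected, and Dre by *Pomc* sequences, active there and in the NTS, which was dissected. AgRP-IRES-Cre is an insertion at *Agrp* itself, and the groups differ in it, in POMC-Dre and in the action of both receptors. An effect of AgRP-IRES-Cre on its locus cannot be told apart from effects of POMC-Dre, activated AgRP neurons or inhibited POMC neurons. The labels do not tie a library to a single animal, and p-values therefore measure the spread between these libraries.

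The 4 libraries held 9723 to 10051 kept nuclei and 48904976 to 53089402 UMIs, and pairs of libraries shared 19 to 36 barcodes. Neurons made up 25.4% and 27.2% of the nuclei of the control libraries, and 38.0% and 36.5% of those of the AgRP-Gq;POMC-Gi libraries, with a median of 8704 UMIs per neuron over all libraries. The neuronal markers *Rbfox3*, *Snap25* and *Syt1* summed to 2263 to 2346 counts per 1000000 UMIs (CPM) in neurons of each library. Choroid plexus nuclei numbered 2, 436, 6 and 329 in control 1, control 2, AgRP-Gq;POMC-Gi 1 and AgRP-Gq;POMC-Gi 2, the order in which values per library are given throughout. The summed CPM of the choroid plexus markers *Ttr* and *Folr1* in neurons followed them, at 1.53, 1006, 7.73 and 582. Of the oligodendrocyte markers in neurons, *Mog* was at 12.7, 9.84, 5.70 and 7.51 CPM and *Mag* at 18.4, 14.7, 10.99 and 12.5 CPM. Both were lower with AgRP-Gq;POMC-Gi without overlap and neither was at 0.

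Both ligands are defined by short stretches of their coding sequence, which are shown because they carry the residues that meet the receptor. The sequences are those of the GENCODE M21 transcripts on GRCm38. In *Pomc*, on the plus strand, the stretch from Pomc-201 spans coding bases 343 to 438 of 705 at chr12:3960103-3960198, and the capitals mark the codons for His, Phe, Arg and Trp, the core shared by the melanocortin peptides, here in the part that gives rise to ACTH and α-MSH. In *Agrp*, on the minus strand, the stretch from Agrp-201 spans coding bases 268 to 393 of 393 at chr8:105566759-105566884, and the capitals mark the codons for Arg, Phe and Phe, the triplet with which AgRP contacts the receptor.
Pomc: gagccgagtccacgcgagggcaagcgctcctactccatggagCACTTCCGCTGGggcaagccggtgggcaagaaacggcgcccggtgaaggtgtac
Agrp: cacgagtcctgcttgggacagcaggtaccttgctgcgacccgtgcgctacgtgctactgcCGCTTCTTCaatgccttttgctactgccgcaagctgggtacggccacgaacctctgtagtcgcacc
The *Pomc* core occurred 3 times in the reading frame of Pomc-201, starting at coding bases 241, 385 and 577, and the *Agrp* triplet occurred 1 time in that of Agrp-201. Each printed stretch lies within 1 exon.

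*Pomc*, the precursor gene of the activating peptides, was detected at a low level in most cell types (ENSMUSG00000020660, chr12:3954951-3960642). It gave 565 UMIs in all kept nuclei, 399 of them in neurons. In neurons its level was 1.97, 3.17, 3.20 and 4.11 CPM in the 4 libraries. Both AgRP-Gq;POMC-Gi libraries were above both controls, as for 12.2% of all genes tested, although control 2 and AgRP-Gq;POMC-Gi 1 nearly met. A UMI was found in 2.88% of neurons (95% exact binomial interval 2.59% to 3.19%, which like all intervals here covers counting error only), and no neuron held more than 3.

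The neuronal *Pomc* level differed little from that of other nuclei, with a ratio of 1.52 and a range over libraries of 0.898 to 2.43. Oligodendrocytes, which are not known as a source of POMC, had 2.14 ± 0.759 CPM (SD, n = 4 libraries) and a UMI in 0.505% of nuclei at a median of 2460 UMIs per nucleus. After every nucleus had been thinned to 800 UMIs, a *Pomc* UMI was left in 0.247% of neurons and 0.107% of oligodendrocytes. Endothelial nuclei had the highest mean, 9.57 ± 2.12 CPM, which rested on 12 UMIs. None of the 13 neighbouring pairs in the order of the 14 cell types was separated without overlap of their libraries, whereas endothelial nuclei, at 6.98 to 11.6 CPM, lay above neurons, at 1.97 to 4.11 CPM, with ependymal nuclei between them in the order.

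Over 120 neuronal clusters, those in which each library held 5 nuclei or more, *Pomc* had no UMI in 20, a median of 2.29 CPM and a highest mean of 17.5 CPM. Among clusters with at least 5 *Pomc*-positive nuclei, cluster 149 (Cartpt/Arhgap28) was highest, at 20.0, 20.9, 6.35 and 13.5 CPM from 6 UMIs in 6 of 55 nuclei. It was glutamatergic by its *Slc17a6*, the vesicular glutamate transporter gene, at 143 CPM, against 2.71 CPM for *Slc32a1*, the vesicular transporter gene of inhibitory neurons, although *Gad2*, an enzyme gene of GABA synthesis, was at 80.2 CPM. *Dbh* and *Th*, enzyme genes of noradrenaline synthesis, were at 13.3 and 4.49 CPM. The following clusters were 56 and 101, both GABAergic, and 174 and 68, both glutamatergic, with means between 8.06 and 9.75 CPM. The cluster means of *Pomc* hardly repeated from library to library, with a median Pearson r of 0.12 over the 6 pairs of libraries and 120 clusters, given as a description. The SD between cluster means was 3.19 CPM, and the median SD between single libraries within a cluster was 3.09 CPM. A mean of 4 libraries varies less than a single library, so these values cannot be compared directly.

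*Agrp*, the gene of the antagonist, was counted far more widely (ENSMUSG00000005705, chr8:105566698-105637393, minus strand). It gave 13837 UMIs, 11010 of them in neurons, and a UMI was found in 50.8% of neurons (49.9% to 51.7%). In neurons its level was 86.0, 90.9, 83.6 and 91.6 CPM, and the groups overlapped. Single neurons mostly held few UMIs: 28.2% held 1, 13.8% held 2, and the highest count was 11. With neurons split by depth into 4 groups of nearly equal size, the share rose from 31.5% in the shallowest to 71.7% in the deepest, while the level went from 100.2 to 83.3 CPM. Thinned to 800 UMIs, 6.74% of neurons kept an *Agrp* UMI.

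*Agrp* was also counted in every annotated cell type. Endothelial nuclei had 118 ± 8.91 CPM, tanycyte-like nuclei 90.2 ± 27.4 CPM and neurons 88.0 ± 3.88 CPM. Fibroblasts followed with 77.4 ± 11.5 CPM and astrocytes with 59.0 ± 6.65 CPM, and oligodendrocytes were lowest with 20.0 ± 2.74 CPM. The level in neurons exceeded that of all other nuclei together by a ratio of 2.46, with a range over libraries of 2.19 to 2.82. Neighbours in this order overlapped in all 13 cases, whereas endothelial nuclei, at 105 to 125 CPM, and neurons, at 83.6 to 91.6 CPM, were separated without overlap although only tanycyte-like nuclei lay between them. Thinned to 800 UMIs, 8.49% of endothelial nuclei, 4.64% of astrocytes and 1.499% of oligodendrocytes kept an *Agrp* UMI.

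**Figure D1:**
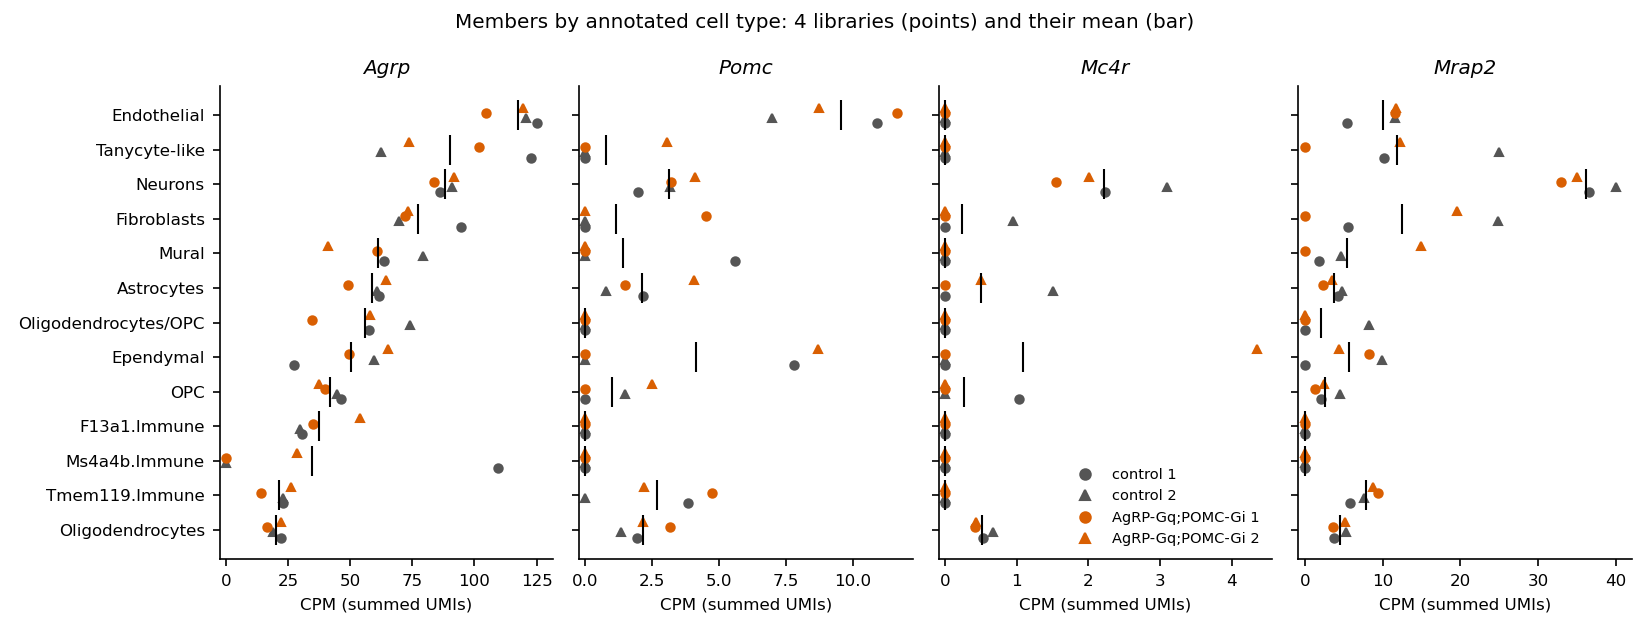
Level of *Agrp*, *Pomc*, *Mc4r* and *Mrap2* in CPM from summed UMIs (x axis, linear, one scale per gene) in 13 annotated cell types (y axis, ordered by the mean of *Agrp*), with a point for each of the 4 libraries and a black bar for their mean. Choroid plexus is left out because 2 libraries hold 2 and 6 of its nuclei. *Agrp* spans 20.0 to 118 CPM over the types shown, whereas *Mc4r* and *Mrap2* stand highest in neurons.

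Within neurons *Agrp* had UMIs in 120 of 120 clusters. The median cluster had 86.9 CPM, and the means ran from 44.5 to 147 CPM. The SD between cluster means was 18.4 CPM, and the median SD between single libraries within a cluster was 21.1 CPM. A mean of 4 libraries varies less than a single library, so these values cannot be compared directly. The highest mean, in cluster 119 (Npas1/Nell1, GABAergic), came from 221, 167, 92.4 and 109 CPM. Cluster 66 (GABAergic) followed with 127 ± 21.1 CPM. Clusters 115 (Sema3a/Cdh9) and 99, both glutamatergic, had 121 ± 55.6 and 120.4 ± 13.9 CPM, and cluster 59 (Kcnmb2/Sema3a, GABAergic) had 119.7 ± 16.9 CPM, so that the top 5 held both transmitter classes. Clusters 119 and 66 held the transporter genes of inhibitory neurons, *Slc32a1* at 62.4 and 52.3 CPM and *Slc6a5*, the neuronal glycine transporter gene, at 171 and 228 CPM.

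Transmitter classes differed little in *Agrp*. Glutamatergic clusters together had 85.1 ± 3.24 CPM, GABAergic clusters 92.3 ± 5.99 CPM and mixed clusters 89.96 ± 1.27 CPM, from 69, 46 and 7 of the 134 neuronal clusters. The cluster means repeated weakly between libraries, with a median r of 0.25 and a range of 0.086 to 0.33 over the 6 pairs.

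*Npy*, the peptide gene that arcuate AgRP neurons co-express, was rare in neurons with and without *Agrp*. It had a UMI in 2.45% of neurons with an *Agrp* UMI and in 3.05% of those without, although the former were deeper, with medians of 10329 and 7347 UMIs. Thinned to 2000 UMIs, the shares were 0.711% and 0.971%. The 10 neurons with the most *Agrp*, 8 to 11 UMIs each, sat in 10 different clusters.

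**Figure D2:**
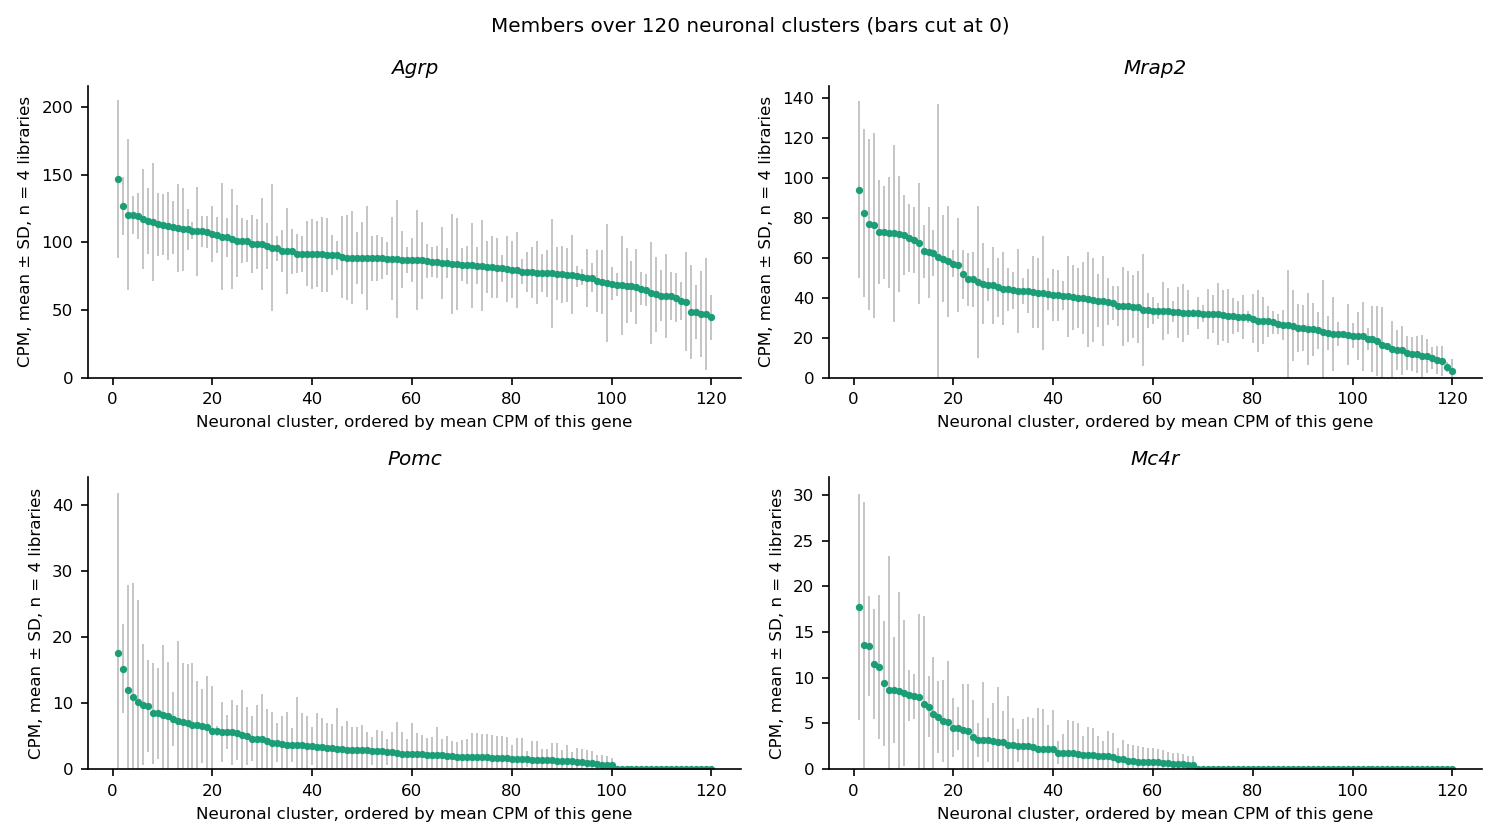
Mean CPM ± SD of 4 libraries (y axis, linear, bars cut at 0) of *Agrp*, *Mrap2*, *Pomc* and *Mc4r* in the 120 neuronal clusters, each panel ordered by its own gene (x axis). *Agrp* falls slowly from 147 to 44.5 CPM with bars wider than most steps, and *Mc4r* reaches 0 in 52 clusters.

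The annotation places *Agrp* over a long stretch with other genes. The gene spans 70696 bases, more than 87.2% of the genes in the matrices, whereas Agrp-201, the transcript of the compact gene, spans 1601 bases, or 2.26% of it. The transcript Agrp-202 begins 69095 bases upstream of Agrp-201 and Agrp-203 begins 11547 bases upstream, and both join the same coding exons. The union of all exons is 1013 bases. The span overlaps 7 genes, of which 4 were in the matrices, and these 4 were examined beside the nearest gene on each side. *Gm38250*, an antisense gene, *Ripor1* and *Ctcf*, which encodes a chromatin insulator protein, lie on the opposite strand. *Gm5914*, a lincRNA gene, lies on the strand of *Agrp* over the first exon and part of the first intron of Agrp-202. *Atp6v0d1*, which encodes a subunit of the vacuolar proton pump, lies on the same strand and starts 651 bases beyond the end of *Agrp*, and *Carmil2* lies on the other side. The counts are per gene, so they do not show which transcript or which part of the span the *Agrp* UMIs came from.

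**Figure D3:**
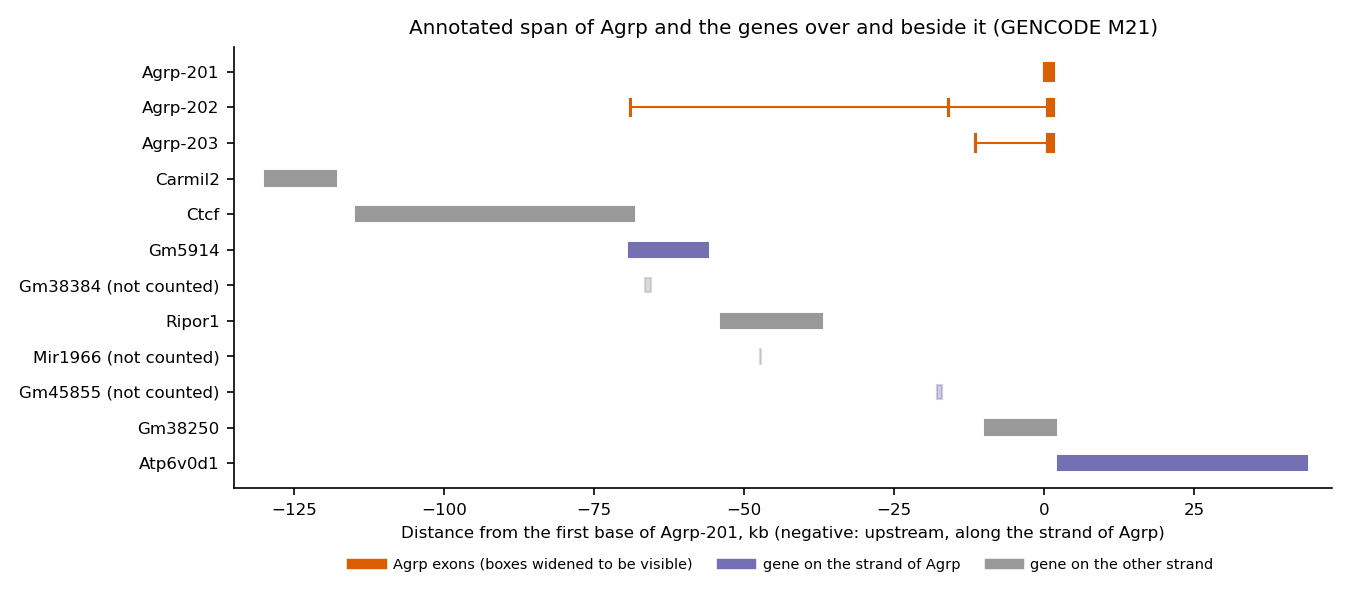
Map of the annotated span of *Agrp* with its 3 transcripts, the genes that overlap it and the nearest genes in the matrices (y axis), in kb from the first base of Agrp-201 (x axis). Orange boxes are exons, widened to be visible, purple genes lie on the strand of *Agrp*, grey genes on the other, and pale genes were not in the matrices. Agrp-201 fills 2.26% of the span.

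Each of these genes had its own pattern beside that of *Agrp*. The ratio of neurons to other nuclei was 2.499 for *Ripor1* and 2.70 for *Carmil2*, near the 2.46 of *Agrp*, and 1.87 for *Gm5914*, 1.62 for *Gm38250*, 1.06 for *Atp6v0d1* and 0.796 for *Ctcf*. Over 13 cell types the Pearson r of the log2(CPM + 10) means with *Agrp* was 0.78 for *Ripor1*, 0.32 for *Gm38250*, 0.24 for *Gm5914* and 0.09 for *Atp6v0d1*. It was -0.16 for *Ctcf* and -0.19 for *Carmil2*. Over the 120 clusters the order changed, with *Gm38250*, the antisense gene over the compact *Agrp* transcript, at 0.41 and *Ripor1* at 0.07. The remaining r were 0.10 for *Atp6v0d1* and *Carmil2*, -0.13 for *Ctcf* and -0.15 for *Gm5914*. These r are descriptions over points that share libraries and depth. Whether the wide *Agrp* counts come from the compact transcript, from the long transcripts or from neighbouring transcription was not tested.

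*Mc4r*, the receptor most closely tied to food intake, was low and mostly neuronal (ENSMUSG00000047259, chromosome 18, 66857704 to 66860506, a gene of 1 exon). It gave 308 UMIs, 271 of them in neurons. In neurons its level was 2.23, 3.10, 1.55 and 2.01 CPM. Both AgRP-Gq;POMC-Gi libraries were below both controls, as for 24.6% of all genes tested in neurons. A UMI was found in 1.83% of neurons (1.60% to 2.08%), against 0.137% of oligodendrocytes (0.0867% to 0.205%). Thinned to 800 UMIs, the shares were 0.175% and 0.0297%. The neuronal level exceeded that of other nuclei by a ratio of 5.06, with a range over libraries of 4.16 to 5.97.

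The 229 neurons with an *Mc4r* UMI were scattered over 71 clusters, and 31 of them held 2 or more UMIs. The cluster with the most such neurons, 28 (Mecom/Sema3a), held 14. By level, cluster 137 (Mecom/Col12a1) was highest, at 18.8, 27.1, 0 and 25.1 CPM from 15 UMIs in 10 of 62 nuclei. It was glutamatergic, with *Slc17a6* at 122 CPM, and had *Gad2* at 19.4 CPM and *Chat*, the enzyme gene of acetylcholine synthesis, at 14.5 CPM. Cluster 173 (Mecom/Oprk1) followed at 28.5, 25.7, 0 and 0 CPM from 7 UMIs. Its *Slc17a6* was at 91.1 CPM, *Gad2* at 40.2 CPM, *Chat* at 20.7 CPM and *Slc5a7*, the choline transporter gene, at 52.7 ± 61.8 CPM. Cluster 86 (Tfap2b/Col25a1), which was GABAergic with *Gad2* at 302 CPM, had 20.8, 14.01, 8.17 and 10.7 CPM. Clusters 92 and 132 had means of 11.6 and 9.39 CPM. No *Mc4r* UMI was found in 52 of 120 clusters, which at this depth does not show that the gene is absent there. The cluster means repeated between libraries with a median r of 0.35.

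*Mc3r*, the other central receptor, was at the edge of detection (ENSMUSG00000038537, chr2:172248492-172251114). It gave 15 UMIs in all, of which 6 were in neurons and 7 in choroid plexus. Its neuronal level was 0.037, 0.109, 0.028 and 0.028 CPM, and it was not tested between groups. A UMI was found in 0.0479% of neurons (0.0176% to 0.104%) and in 0.776% of choroid plexus nuclei (0.285% to 1.68%).

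*Mrap2*, the accessory protein gene, was highest in choroid plexus and neurons (ENSMUSG00000042761, chr9:87144306-87184045). It gave 5055 UMIs, 4485 of them in neurons. In neurons its level was 36.5, 40.0, 32.9 and 35.0 CPM. Both AgRP-Gq;POMC-Gi libraries were below both controls, as for 24.6% of all genes tested in neurons. A UMI was found in 26.1% of neurons (25.3% to 26.9%) and in 1.18% of oligodendrocytes, where the level was 4.50 ± 0.890 CPM. Thinned to 800 UMIs, the shares were 2.86% and 0.369%. Choroid plexus, where nearly all nuclei came from control 2 and AgRP-Gq;POMC-Gi 2, was at 60.7 and 60.8 CPM in these libraries, above their neurons, and 4.92% of its nuclei kept an *Mrap2* UMI at 800 UMIs.

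*Mrap2* differed between neuronal clusters more than *Agrp* did in relative terms. Its cluster means ran from 3.08 to 94.2 CPM, with a ratio of the ninetieth to the tenth percentile of 4.71, against 1.77 for *Agrp*. The SD between cluster means was 18.4 CPM and the median SD between single libraries 13.1 CPM, which likewise cannot be compared directly. The means repeated between libraries with a median r of 0.43 and a range of 0.37 to 0.55. The highest was cluster 126 (Tfap2b/Slc39a8, GABAergic), at 138, 127, 57.8 and 54.3 CPM. Cluster 121 (Slc17a7/Lama1, glutamatergic) had 44.1, 107, 50.1 and 129 CPM and cluster 65 (Eya1/Hs3st4, glutamatergic) 37.8, 98.5, 71.1 and 85.3 CPM. Clusters 180 and 142 had means of 76.8 and 76.3 CPM.

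*Mrap2* and its partner receptor were also compared nucleus by nucleus. Of neurons with an *Mc4r* UMI, 31.0% (25.1% to 37.4%) also had an *Mrap2* UMI, against 26.0% of neurons without, and the former were deeper, with medians of 11152 and 8655 UMIs. Thinned to 2000 UMIs, the shares were 6.52% (1.37% to 17.9%) and 6.78%. *Agrp*, in turn, had a UMI in 54.1% of neurons with and 50.7% of neurons without an *Mc4r* UMI.

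The genes whose cluster pattern was most like that of a member were found by Pearson's r of log2(CPM + 10) over the 120 clusters, among genes with at least 1000 UMIs in neurons. For *Agrp* they were *Amy1* (0.58), *Elavl4* (0.57), which encodes a neuronal RNA-binding protein, and *Gm16894* (0.56), and 14 genes in all exceeded 0.5. For *Mc4r* they were *Nnat* (0.50), *Smyd5* (0.44) and *Slc39a11* (0.43). For *Mrap2* they were *Spag6l*, *Pced1b* and *Dock6*, each at 0.47, and for *Pomc* *Rab39b* (0.39), *Klhl15* (0.38) and *Gm41760* (0.38).

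Between the groups, no member passed the test in neurons. The test was edgeR's quasi-likelihood test on UMIs summed per library, with Benjamini-Hochberg adjustment over 22919 genes and a call at an adjusted p under 0.05, and a positive log2 fold change means higher in AgRP-Gq;POMC-Gi. *Agrp* had a log2 fold change of 0.05 (SE 0.07, edgeR adjusted p = 0.933), which was -0.01 when library sizes were used without TMM factors. *Pomc* had 0.56 (SE 0.25, edgeR adjusted p = 0.856). *Mc4r* had -0.53 (SE 0.25, edgeR adjusted p = 0.856) and *Mrap2* -0.11 (SE 0.09, edgeR adjusted p = 0.867). Thus edgeR called 0 of 4 tested members and 0.00436% of all genes (1 gene), DESeq2 called 0 members and 12 genes, and none of the 4 had an unadjusted p under 0.05. *Pomc* was higher without overlap, as were 12.2% of all genes, and *Mc4r* and *Mrap2* were lower without overlap, as were 24.6%. The oligodendrocyte markers *Mog* and *Mag* were also lower in neurons of the AgRP-Gq;POMC-Gi libraries. *Mc4r* and *Mrap2* had lower means in oligodendrocytes than in neurons, at 0.513 against 2.22 CPM for *Mc4r* and 4.50 against 36.1 CPM for *Mrap2*. The part of oligodendrocyte RNA in their group differences was not tested.

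The share of neurons with a UMI was compared as well. *Mc4r* was detected in 2.15%, 2.38%, 1.35% and 1.68% of neurons, a difference of -0.746 percentage points (AgRP-Gq;POMC-Gi minus control) in which the groups did not overlap. The exact two-sided permutation test gave p = 0.333, the smallest value that 2 libraries against 2 allow, so this design cannot reach 0.05. After thinning to 2000 UMIs the shares were 0.452%, 0.667%, 0.302% and 0.167%, again without overlap. How many of all genes had shares without overlap was not counted. By CPM, 24.6% of all genes were lower without overlap. *Pomc* was detected in 1.98%, 2.78%, 2.87% and 3.57% of neurons, a difference of 0.840 points (exact permutation p = 0.333) that was 0.0928 points after thinning, when its groups overlapped. *Mrap2* differed by -3.05 points (exact permutation p = 0.333), and by -0.228 points after thinning, when its groups overlapped.

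In single neuronal clusters the members could be tested in 236 pairs of gene and cluster, 120 for *Agrp*, 107 for *Mrap2*, 6 for *Mc4r*, 3 for *Pomc* and 0 for *Mc3r*. None was called by edgeR or DESeq2, against 0.0228% of all pairs of gene and cluster. The lowest adjusted p by edgeR was 0.857, and 7 pairs had an unadjusted p under 0.05. The *Agrp* log2 fold change was positive in 69 and negative in 51 clusters, with a median of 0.06 against a spread of -0.87 to 0.92. That of *Mrap2* was positive in 39 and negative in 68, with a median of -0.17. Its 5 of 107 pairs with an unadjusted p under 0.05, in clusters 88, 89, 113, 126 and 130, were all negative. The counts at an unadjusted p have no share over all pairs beside them and are not read as a result. *Mc4r* was negative in 6 of 6 clusters with a median of -1.12, but clusters share the 4 libraries and are no replicates of the difference. A cluster could also reach the UMI minimum for the test through the controls, where *Mc4r* was higher. The directions in these 6 clusters are therefore not counted as support.

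Outside neurons, 19 pairs of member and cell type were tested in 12 types, 10 of them for *Agrp*, and none was called by edgeR or DESeq2, against 0.0986% of all pairs. None had an unadjusted p under 0.05, and the lowest adjusted p by edgeR was 0.765. *Agrp* in endothelial nuclei was 125, 121, 105 and 119.5 CPM and in astrocytes 61.5, 60.7, 49.3 and 64.4 CPM.

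Neurons with an *Mc4r* UMI, 53, 65, 50 and 61 per library, were examined for the 10 immediate-early genes (IEGs) of the study, which rise shortly after a neuron is activated. Of these, 9 could be tested and none was called by edgeR or DESeq2, against 0.0295% of 13558 genes (4 genes) called by edgeR. An unadjusted p under 0.05 was found for 2 of the 9, a count with no share over all genes beside it. *1700016P03Rik*, an IEG transcript, was at 34.0, 8.84, 69.8 and 36.3 CPM, with a log2 fold change of 1.39 (SE 0.47, edgeR adjusted p = 0.876), and control 2 was far below the other libraries. Without control 1, which leaves 1 control library assumed to vary like the others, the same gene had an edgeR adjusted p of 0.000317, and with no filter on low counts 0.0213, so its call rests on these choices. *Fos*, which encodes a subunit of the transcription factor AP-1, was at 6.80, 2.21, 8.72 and 8.06 CPM, with a log2 fold change of 0.98 (SE 0.75, edgeR adjusted p = 0.943). Its log2 fold change ran from 0.35 without control 2 to 1.89 without control 1, and that of *1700016P03Rik* from 0.67 to 2.59 in the same fits. *Nr4a3*, a nuclear receptor gene and 1 of the 2 with an unadjusted p under 0.05, had 2, 0, 3 and 6 UMIs, and *Gem* had 1, 3, 11 and 1, so both reached the minimum of 10 UMIs with most of their UMIs from the group where they were high. In all neurons the log2 fold change was positive for 9 of the 10 IEGs, against 11460 of 22919 genes tested. The study had picked these IEGs from a longer list as indicators of potential activation. The groups overlapped for *Fos*, *Fosl2*, *Homer1*, *Nr4a1* and *Junb*, the last at only 0.008. *Nr4a3*, *Gem*, *Btg1* and *1700016P03Rik* were higher without overlap, as were 12.2% of all genes. *Jun* was lower without overlap, as were 24.6%. Of the IEGs 4 had an unadjusted p under 0.05, against 1234 of all genes, and none was called by edgeR or DESeq2. Whether the *Mc4r*-positive neurons differ from other neurons in this was not tested.

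The 4 genes called in these neurons were *Gm34544*, *Pard3b*, *Arhgap6* and *Arhgap15*, which are named after their values were seen (edgeR adjusted p = 0.0342 for each). *Arhgap15*, which encodes a GTPase-activating protein, was at 19.1, 28.7, 75.0 and 83.3 CPM, a log2 fold change of 1.75 (SE 0.27). *Arhgap6*, of the same protein class, was at 46.3, 39.8, 112 and 114 CPM, a log2 fold change of 1.45 (SE 0.22). *Pard3b*, a cell polarity gene, had a log2 fold change of 1.35 (SE 0.20). *Gm34544* had 0, 0, 11 and 24 UMIs and thus reached the minimum of 10 UMIs only through the group where it was high. In all neurons the 4 log2 fold changes lay between 0.27 and 0.70 and none was called by edgeR or DESeq2. The clusters that gave the *Mc4r*-positive neurons differed in part between the groups. Cluster 30 gave 3, 4, 0 and 0 of them and cluster 173 gave 1, 4, 0 and 0, whereas cluster 45 gave 0, 0, 1 and 3 and cluster 155 (Kcnh8/Arhgap6) 0, 0, 2 and 1. These clusters were picked after their values were seen. Others were more even, such as 28 at 2, 6, 2 and 4, 39 at 2, 3, 1 and 3 and 89 (Necab1/Arhgap15) at 0, 1, 1 and 0. The part of this makeup in the 4 differences was not tested. The number of genes called in the *Mc4r*-positive neurons fell to 0 without TMM factors and rose to 25 without control 1, 20 without control 2 and 13 without AgRP-Gq;POMC-Gi 2.

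The other genes of the melanocortin pathway were taken from 6 lists with 34 genes in all, of which 31 could be tested in neurons. None was called by edgeR or DESeq2, against 0.00436% of all genes, 18 log2 fold changes were positive and 13 negative, and their median was 0.05 against 0.00 over all genes tested. *Pcsk2* and *Cartpt* had an unadjusted p under 0.05. The 6 POMC-processing genes had 4 positive and 2 negative log2 fold changes, from -0.12 to 0.39. Of these genes, *Pcsk2*, a prohormone convertase gene, was at 434, 414, 441 and 489 CPM (log2 fold change 0.19, SE 0.08, edgeR adjusted p = 0.856). *Pcsk1*, the other convertase gene, was at 30.6, 32.3, 29.1 and 50.7 CPM (0.39, edgeR adjusted p = 0.856), a difference carried by AgRP-Gq;POMC-Gi 2. *Pam*, the peptide-amidating enzyme gene, was higher without overlap at 273, 259, 291 and 290.1 CPM, as were 12.2% of all genes.

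The other receptors of the family were at the edge of detection in neurons. *Mc1r*, *Mc2r*, *Mc5r* and *Mrap* lay between 0.084 and 0.927 CPM in every library. The receptor-signalling genes, which include *Gnas*, the gene of the stimulatory G protein subunit, and *Kcnj13*, a potassium channel gene, had log2 fold changes between -0.15 and 0.15. *Atrn* and *Atrnl1*, the attractin genes, had 0.05 and 0.22.

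The genes described here, a part of the lists that mark arcuate AgRP and POMC neurons, ranged from missing to 23.2 CPM. In the whole AgRP neuron list 5 genes were tested, with 4 positive and 1 negative log2 fold changes from -0.28 to 0.43. In the whole POMC neuron list 4 were tested, with 2 positive and 2 negative from -0.45 to 0.79 and a median of -0.04. *Npy* was at 4.58, 3.72, 3.20 and 6.63 CPM, *Nkx2-1*, a hypothalamic transcription factor gene, had a UMI in 1 library only, and *Six6* was at 0 in all 4. *Otp*, another transcription factor gene of arcuate AgRP neurons, was at 0.794 to 1.77 CPM. *Cartpt*, whose peptide is made by POMC neurons and also by hindbrain neurons, was at 8.64, 15.4, 16.8 and 23.2 CPM (log2 fold change 0.79, SE 0.24, edgeR adjusted p = 0.856). Cluster 149 (Cartpt/Arhgap28) held 6, 7, 19 and 23 of the 2470, 2736, 3696 and 3637 neurons. Cluster 111 (Cartpt/Postn) held 9, 18, 32 and 28 of them. The part of these clusters in the *Cartpt* difference was not tested. *Cartpt* was higher without overlap, as were 12.2% of all genes, with control 2 nearer to AgRP-Gq;POMC-Gi 1 than to control 1. It passed the threshold when control 2, the control nearer to the other group, was left out, with a log2 fold change of 1.26 (edgeR adjusted p = 0.000186), a fit in which the lone control is assumed to vary like the other libraries.

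The only gene that edgeR called between groups among all 22919 tested in neurons lay close to *Agrp*, and it was also among the 12 that DESeq2 called. It was *Hsd11b2* (ENSMUSG00000031891, chr8:105518755-105523988, plus strand), 42710 bases beyond the end of the *Agrp* span, and it is named after its values were seen. It encodes the enzyme that inactivates glucocorticoids and marks aldosterone-sensing neurons of the NTS. Its counts in neurons were 16, 11, 292 and 313 UMIs, or 0.596, 0.401, 8.21 and 8.87 CPM. Both AgRP-Gq;POMC-Gi libraries stood far above both controls, with a log2 fold change of 4.15 (SE 0.23, edgeR adjusted p = 0.00224).

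The *Hsd11b2* difference was spread thinly over neurons and other nuclei. A UMI was found in 0.607% and 0.402% of control neurons and in 7.28% and 8.03% of AgRP-Gq;POMC-Gi neurons, and no neuron held more than 3. In all other nuclei the shares were 0.0965%, 0.123%, 1.10% and 1.12%. *Hsd11b2* had a UMI in 23 of 120 neuronal clusters of the controls and in 117 of the AgRP-Gq;POMC-Gi libraries. In 14 clusters it reached the 10 UMIs needed for the test, but with 27 UMIs in all control neurons it did so through the group where it was high, so the directions in these clusters are not counted as support. In oligodendrocytes it was at 0.199, 0.335, 3.27 and 4.63 CPM and was called by edgeR (log2 fold change 3.91, SE 0.45, edgeR adjusted p = 0.0212). In astrocytes it was at 0.866, 0.752, 5.97 and 3.04 CPM and was not (edgeR adjusted p = 0.137). Both types, with 7 control UMIs each, also reached the 10 UMIs through the group where the gene was high.

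*Atp6v0d1*, which lies between *Hsd11b2* and *Agrp*, was also higher without overlap in neurons of the AgRP-Gq;POMC-Gi libraries, where DESeq2 called it (adjusted p = 0.00278) and edgeR did not. Its level in neurons was 64.6, 66.7, 92.7 and 90.3 CPM (log2 fold change 0.54, SE 0.08, edgeR adjusted p = 0.438). With AgRP-Gq;POMC-Gi 2 left out the edgeR adjusted p was 0.0225. Its log2 fold change was positive in 110 of 120 clusters, with a median of 0.48, and it was higher without overlap in 59 clusters, against 15.1% of all pairs of gene and cluster, and lower in 3. In oligodendrocytes it was at 60.5, 63.8, 78.6 and 88.8 CPM and in microglia-like nuclei annotated Tmem119.Immune at 95.9, 89.5, 125 and 129 CPM. It was higher without overlap in 7 of the 11 other cell types tested, against 15% of all pairs of gene and type. It was called in no cluster and no other type by edgeR or DESeq2, with 21 clusters and 4 types at an unadjusted p under 0.05. Clusters and types share the 4 libraries and are no replicates of the difference.

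**Figure D4:**
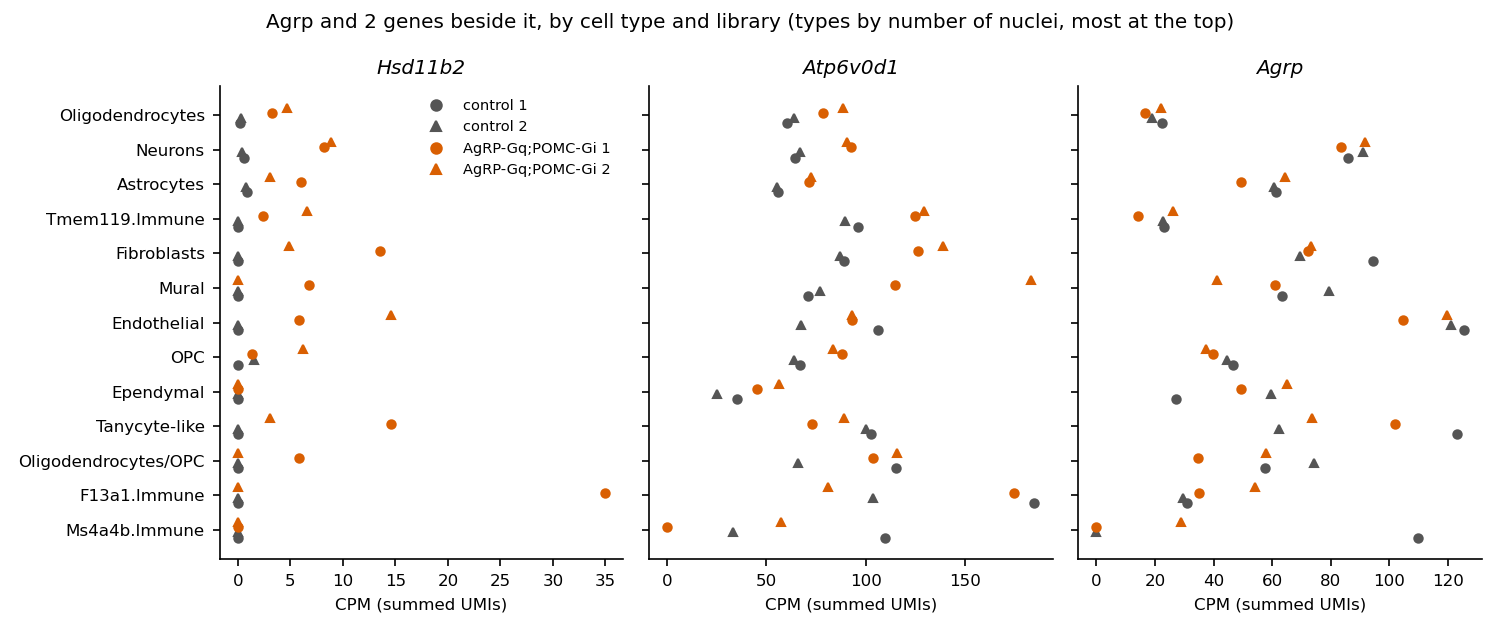
Level of *Hsd11b2*, *Atp6v0d1* and *Agrp* in CPM from summed UMIs (x axis, linear) by annotated cell type (y axis, most nuclei at the top), with a point for each library. In neurons and oligodendrocytes both AgRP-Gq;POMC-Gi points lie above both control points for *Hsd11b2* and *Atp6v0d1*, and the groups overlap for *Agrp* in both types.

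Of the genes over the *Agrp* span and *Carmil2* beside it, none was called in neurons by edgeR or DESeq2, and none had an unadjusted p under 0.05. The log2 fold changes were -0.08 for *Gm38250*, 0.03 for *Ripor1*, 0.04 for *Ctcf*, -0.07 for *Carmil2* and 0.31 for *Gm5914*. *Gm5914*, at 7.86, 8.02, 10.2 and 8.56 CPM, was higher without overlap, as were 12.2% of all genes (edgeR adjusted p = 0.856). *Gm38250*, at 18.2, 19.7, 16.6 and 17.9 CPM, was lower without overlap, as were 24.6% (edgeR adjusted p = 0.915). Over 48 clusters the log2 fold change of *Gm5914* was positive in 31, with a median of 0.32, and it was higher without overlap in 15, against 15.1% of all pairs of gene and cluster, and lower in 4. These clusters share the 4 libraries and are no replicates of the difference. Within 1 Mb on each side of *Agrp*, 70 of 85 genes were tested, 1 was called by edgeR, *Atp6v0d1* in addition by DESeq2, and 8 had an unadjusted p under 0.05, with a median log2 fold change of 0.03. Over all 22919 genes 0.00436% were called by edgeR and 1234 had an unadjusted p under 0.05. Within 1 Mb of *Pomc*, 34 of 34 were tested, 0 were called by edgeR or DESeq2 and 2 had an unadjusted p under 0.05. The windows around *Mc3r*, *Mc4r* and *Mrap2* held 19, 31 and 12 tested genes and 0 called by either tool, with 0, 4 and 2 at an unadjusted p under 0.05. The groups differ by the AgRP-IRES-Cre allele in the window that holds *Hsd11b2* and *Atp6v0d1*. An effect of this allele cannot be told apart from effects of POMC-Dre, activated AgRP neurons or inhibited POMC neurons.

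**Figure D5:**
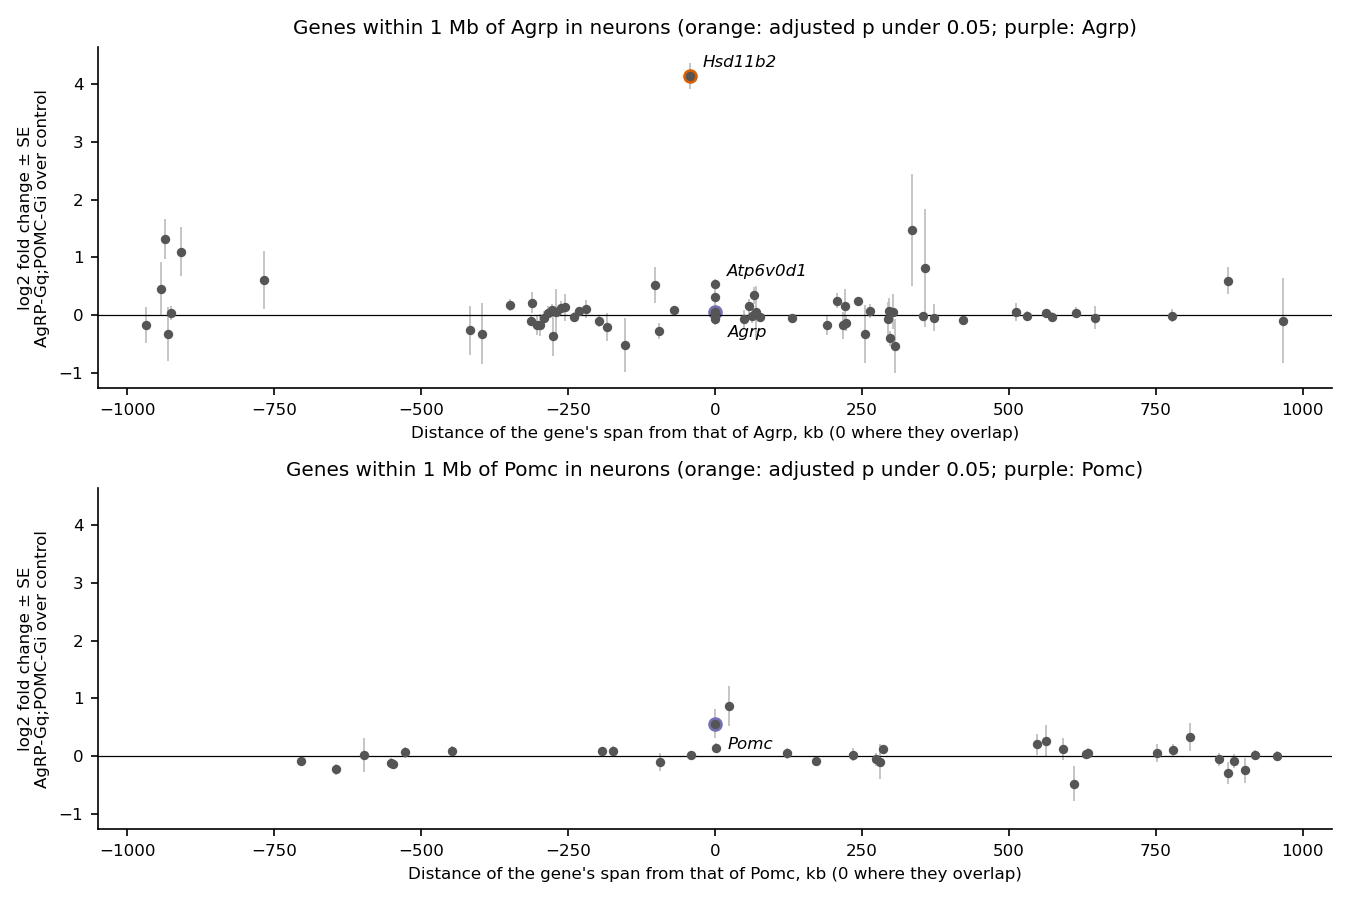
Log2 fold change ± SE in neurons (y axis, AgRP-Gq;POMC-Gi over control) of the tested genes within 1 Mb of *Agrp* (top) and of *Pomc* (bottom) by distance of their spans in kb (x axis, 0 where they overlap). *Hsd11b2*, circled in orange, is at 4.15, while *Agrp*, circled in purple, is at 0.05 and *Pomc* at 0.56.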

How the data were processed

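The deposited matrices hold UMI counts per gene and barcode for 4 libraries. Per the study's methods the authors made them with Cell Ranger 7.0.0 on GRCm38 from 10x Genomics 3′ libraries of DRAQ5-sorted nuclei. Whether intronic reads were counted and which annotation release was used are not given in the sources used here. The authors' table, made with Seurat 4.3.0, gives UMI and gene counts and the percent of mitochondrial UMIs per barcode, the nuclei they kept, and their clusters and cell types, which were used as deposited. Its totals equalled those of the matrices in 44303 of 44303 barcodes. The joined matrix, which repeats the same counts, was not used, nor were score columns. Doublets were not called again here, and 0 columns of values remained unmapped.

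UMIs of kept nuclei were summed per library over a cell type, a cluster or all neurons and expressed per 1000000 UMIs of that sum (CPM). A cluster or type needed 5 nuclei in every library. Groups were compared with edgeR 4.0.16 (glmQLFit and glmQLFTest, TMM factors, R 4.3.3) over genes with at least 10 UMIs, with Benjamini-Hochberg adjustment over all genes of the set. A cluster was called glutamatergic or GABAergic where the mean CPM of *Slc17a6* or *Slc32a1*, the vesicular transporter genes, was at least 4-fold that of the other with at least 20 UMIs of either, mixed where neither reached this fold, and not called with fewer UMIs (12 clusters). For equal depth, 800 UMIs were drawn from each nucleus for cell types and 2000 for clusters and shares, and intervals are exact binomial at 95%. Alternatives were DESeq2 1.42.0, no TMM factors, other filters, the replicate number as a block, each library left out, thinning and another pseudocount. Gene positions and transcripts are those of GENCODE M21. The scripts were tested on simulated data and run in Python 3.11.15 with numpy 2.4.6, scipy 1.17.1, pandas 2.3.3 and matplotlib 3.10.9.

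The named genes are the 5 members, the pathway lists, the genes over and next to the *Agrp* span, the 3 most similar genes per member with at least 200 UMIs in neurons, the IEGs in *Mc4r*-positive neurons, and the 5 highest clusters per member. Members and lists were chosen with earlier results of these data known, and genes named outside this rule are marked as chosen after their values were seen. An oligodendrocyte marker of the lists is not reported here.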

Additional observations from a re-analysis of the deposited data

Results flagged for a closer look

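The 4842 barcodes that the authors left out, 1003 to 1318 per library, entered no comparison above, and genes at the *Agrp* locus were counted in them as well. *Hsd11b2* in these barcodes was at 0.921 and 0.908 CPM in the controls and at 6.22 and 9.07 CPM in the AgRP-Gq;POMC-Gi libraries, whose mean of 7.64 CPM lay above both controls. *Atp6v0d1* was at 69.8 and 68.7 CPM in the controls and at 90.2 and 93.9 CPM in the AgRP-Gq;POMC-Gi libraries, with a mean of 92.0 CPM. *Agrp* itself was at 64.6 and 64.9 CPM in the controls and at 66.2 and 71.4 CPM in the AgRP-Gq;POMC-Gi libraries, with a mean of 68.8 CPM. *Mc4r* and *Npy* were lower without overlap. *Mc4r* was at 1.71 and 1.69 CPM in the controls and at 1.55 and 0.648 CPM in the AgRP-Gq;POMC-Gi libraries. *Npy* was at 6.32 and 6.10 CPM in the controls and at 2.49 and 5.57 CPM in the AgRP-Gq;POMC-Gi libraries. For *Pomc*, *Mrap2* and *Mc3r* the groups overlapped. These differences between left-out barcodes were not tested.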

How the results depend on the processing

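No member was called in neurons, in single clusters or in other cell types under any alternative tried. In neurons the log2 fold change ranged over all settings from -0.01 to 0.09 for *Agrp*, 0.26 to 0.95 for *Pomc*, -0.74 to -0.27 for *Mc4r* and -0.18 to -0.04 for *Mrap2*. *Agrp* changed sign only without TMM factors (-0.013). In neurons *Hsd11b2* stayed between 3.89 and 4.46 in every setting that tested it, and the filter for a UMI in 5% of neurons removed it. In oligodendrocytes it ran from 3.57 to 4.27, and DESeq2 gave no adjusted p for it there. *Atp6v0d1* passed the threshold with DESeq2 (adjusted p = 0.00278).

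The number of genes called depended on the settings far more than the members did. In neurons it was 1, and 12 with DESeq2, 0 with the 5% filter and 3 to 582 with a library left out. Over pairs of gene and cluster it was 259, and 50 with DESeq2, 1102 without a filter, 537 with the 5% filter, 143 with adjustment over all pairs and 885 to 1495 with a library left out. Over pairs of gene and type it was 131, and 916 without a filter and 302 to 1758 with a library left out. In *Mc4r*-positive neurons it was 4, and 0 without TMM factors, 1 with DESeq2, 43 without a filter and 6 to 25 with a library left out. IEGs called there were 0, and 1 without a filter, with 0 to 1 when a library was left out. There *Gem* ran from -0.79 without AgRP-Gq;POMC-Gi 1 to 3.02 without AgRP-Gq;POMC-Gi 2, and *Junb* from -0.29 without control 2 to 0.30 without control 1, on the log2 scale. Pathway genes called were 0 to 1 with a library left out (*Cartpt* or *Atrnl1*). With a library left out, the lone library of its group is assumed to vary like the others. The causes were not tested. *Mc3r* in neurons fell to 0 CPM when thinned to the depth used for cell types. At the greater depth used for shares, neurons of control 2 and AgRP-Gq;POMC-Gi 1 still held *Mc3r* UMIs. The r of *Agrp* over clusters was -0.0035 with *Ripor1* and -0.038 with *Gm5914* over the 77 clusters with 10 nuclei per library.

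The libraries share replicate numbers, but nothing in the labels pairs them, and the deviations of same-numbered libraries correlated over 11036 genes with r = 0.15. With the replicate number as a block, 303 genes were called in neurons, 774 pairs of gene and cluster, 549 pairs of gene and type and 2 pathway genes (*Pcsk1* and *Cartpt*), *Atp6v0d1* passed the threshold (adjusted p = 8.48e-06), and *Junb* was at 0.014. At this depth *Mc3r* could not be tested in neurons, and *Pomc* and *Mc4r* could be tested in 3 and 6 clusters.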

Other observations

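A few further genes within 1 Mb of a member had an unadjusted p under 0.05 in neurons, and none was called by edgeR (adjusted p = 0.856 for each). They were picked out after their values were seen. *Ccbe1*, in the window of *Mc4r*, was at 15.6, 20.2, 29.0 and 24.0 CPM in control 1, control 2, AgRP-Gq;POMC-Gi 1 and AgRP-Gq;POMC-Gi 2, a log2 fold change of 0.63 (SE 0.16). Cluster 49 (Ccbe1/Tspan18) held 9, 18, 72 and 57 of the 2470, 2736, 3696 and 3637 neurons. Its part in the *Ccbe1* difference was not tested. *Rrad*, a small GTPase gene in the window of *Agrp*, had 11, 10, 34 and 32 UMIs, a log2 fold change of 1.32 (SE 0.35). *Psmb10*, which encodes a proteasome subunit, was at 9.53, 9.81, 6.46 and 7.57 CPM, a log2 fold change of -0.40 (SE 0.13).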
